A study of Mus musculus with 36 samples.

Results

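Gene expression after angiotensin II (Ang II) infusion was compared with that after PBS in HPC-1 progenitors of *Apoe*-/-*Il27ra*+/- mice. The members were taken by their labels, which name the population ST-HSC and give genotype, agent and replicate, and 7 of the 36 libraries of the series belong here, 4 from Ang II and 3 from PBS infusion. The study asked how the IL-27 receptor (IL-27R) bears on the response of blood-forming progenitors to Ang II in a mouse model of abdominal aortic aneurysm. For each library, 5000 lineage-negative bone marrow (BM) cells positive for Sca-1, c-Kit and CD48 and negative for CD150 were sorted after 2 weeks of infusion, and stranded total RNA was sequenced. Every mouse in these groups lacked *Apoe*, carried *Il27ra* in heterozygous form and was on Western diet, so that PBS is the control for Ang II on a hypercholesterolemic background. The labels give neither age nor gender, and do not say that each replicate was a separate mouse, so the tests below measure the spread between libraries.

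HPC-1 are multipotent progenitors downstream of LT-HSC, the stem cells with long-term potential, and give rise to myeloid and lymphoid cells. IL-27R signals as a pair of IL-27Rα, encoded by *Il27ra*, and gp130, encoded by *Il6st*, through Janus kinases and STAT factors. Ang II is the effector peptide of the renin-angiotensin system, and myelopoiesis is known to increase under several kinds of chronic stress.

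Total counts were 3358062, 3103196 and 4922800 in PBS replicates 1 to 3, and 2618919, 2349391, 2272026 and 6318379 in Ang II replicates 1 to 4. Thus PBS replicate 3 and Ang II replicate 4 were the only libraries over 4 M counts. These same 2 libraries had *Xist* at 3536 and 3369 CPM (TMM-normalized over the HPC-1 libraries) and no count of *Ddx3y*, *Eif2s3y*, *Kdm5d* or *Uty*, whereas the other 5 had the sum of these Y-linked genes at 170 to 262 CPM and *Xist* at no more than 5.64 CPM. Depth and sex-linked expression therefore cannot be told apart in this comparison, and each group holds a single library of the deep kind. On a principal component analysis of the 7 libraries, Ang II replicate 3 stood apart on the first component (31.1% of the variance) and Ang II replicate 1 on the second (24.7%). No pair of replicates agreed within sampling noise, with a mean chi-square per gene of 14.5 to 47.1.

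The label was checked against the sort markers. *Kit*, which encodes c-Kit, was at 683, 732 and 528 CPM after PBS and at 515, 691, 1021 and 583 CPM after Ang II. *Cd48* was at 42.2 to 82.9 CPM, and *Slamf1*, which encodes CD150, at 0.436 to 4.48 CPM. On a scale over both cell types, LT-HSC of the same genotype had *Cd48* at 0 to 1.86 CPM and *Slamf1* at 30.6 to 59.8 CPM, so the libraries separated as the sort would have it. *Ly6a*, which encodes Sca-1, was low, at 1.74 to 8.77 CPM. Of the lineage panel, *Cd3e*, *Cd3g* and *Ly6g* had no count in any of the 7 libraries. *Ptprc* (CD45), present on all leukocytes, made up most of the panel's sum. The panel was not free of myeloid transcripts, with *Itgam* (CD11b) at 34.9 to 69.5 CPM and *Ly6c2* at 24.4 CPM on average.

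*Il27ra* itself (chromosome 8, 84030294 to 84042589, mm10) was at 14.9, 10.6 and 9.54 CPM after PBS and at 5.21, 9.16, 13.9 and 15.5 CPM after Ang II. The groups overlapped. Its range was 5.98 to 11.6 CPM in the HPC-1 libraries with intact *Il27ra* and 4.37 to 10.7 CPM in those of *Apoe*-/-*Il27ra*-/- mice, so the counts over this gene do not separate the genotypes, and which exons the deletion removes was not tested. In the heterozygous HPC-1 libraries, *Apoe* was at 1.9 to 10.9 CPM. *Agtr1a*, the gene of the main Ang II receptor in mice, had 2 counts in PBS replicate 3 and none in the other heterozygous HPC-1 libraries.

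Genes of the granulocyte and monocyte program were prominent among the differences, although by p-value *Ccl9*, *Igkc*, *Hp* and *C3* came first. The granule protease and peroxidase genes *Mpo*, *Prtn3*, *Ctsg* and *Elane*, the myeloid transcription factor genes *Gfi1*, *Spi1* and *Cebpa*, and *Csf2rb* were also higher in the mean of the Ang II libraries, while *H2-Q7*, *Foxm1* and *Dnaja1* were lower. No gene passed the threshold in edgeR's quasi-likelihood test, however, with 0 of 13199 genes at a Benjamini-Hochberg adjusted p under 0.05 (0%) and a smallest adjusted p of 0.507. At an unadjusted p under 0.05, 292 genes (2.21%) were higher after Ang II and 227 (1.72%) lower. Every Ang II library was above every PBS library for 278 genes (2.11%), and below for 304 (2.3%). DESeq2 called 4 genes (0.0303%), *Ccl9*, *C3*, *Hp* and *Igkc*, all higher, with 594 at an unadjusted p under 0.05, and limma-voom called 0 with 688. Without PBS replicate 2, the genes at an unadjusted p under 0.05 numbered 197, and without PBS replicate 3, the deep PBS library, 869, against 519 with all 7 libraries.

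Members of this and the other lists were chosen with earlier results of these data known. Of the myeloid priming list, 19 genes were tested, of which 11 were higher and 0 lower at an unadjusted p under 0.05. Every Ang II library was above every PBS library for 9, and 18 had a positive log2 fold change. Over all 13199 genes tested, 2.21% were higher and 1.72% lower, 2.11% were above in every Ang II library, and 6589 genes were positive. The same shares over all genes apply to every list below. The list's median log2 fold change was 0.78, against −0.0002 over all genes tested. Its summed level was 3328, 3405 and 6225 CPM after PBS and 8322, 7605, 7519 and 6566 CPM after Ang II. All 4 Ang II libraries were above all 3 PBS libraries, and PBS replicate 3 lay much nearer to the Ang II libraries than the other PBS libraries did. In bulk RNA, a larger share of myeloid-primed cells and more of these transcripts per cell cannot be told apart, nor fewer cells and less RNA per cell where a gene was lower.

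*Mpo* (chromosome 11, 87793581 to 87804413), which encodes myeloperoxidase of the primary granules, was the most abundant member. It was at 2397, 2389 and 4518 CPM after PBS and at 5787, 5479, 5494 and 4525 CPM after Ang II. The groups did not overlap, but PBS replicate 3 and Ang II replicate 4, the 2 deep libraries, were nearly equal. The log2 fold change was 0.78 ± 0.24 (SE, 4 against 3 libraries). The serine proteases stored in the same granules followed. *Prtn3* (proteinase 3) was at 79.3, 82.0 and 219 CPM after PBS and at 319, 255, 250 and 332 CPM after Ang II, with a log2 fold change of 1.18 ± 0.39. *Ctsg* (cathepsin G) was at 124, 118 and 209 CPM against 539, 325, 225 and 244 CPM (1.14 ± 0.31). *Elane* (neutrophil elastase) was at 37.1, 43.5 and 104 CPM against 284, 188, 247 and 102 CPM (1.71 ± 0.62). In *Prtn3* and *Ctsg* the groups did not overlap, and in *Elane* only the deep pair crossed, with 104 CPM after PBS and 102 CPM after Ang II.

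**Figure D1:**
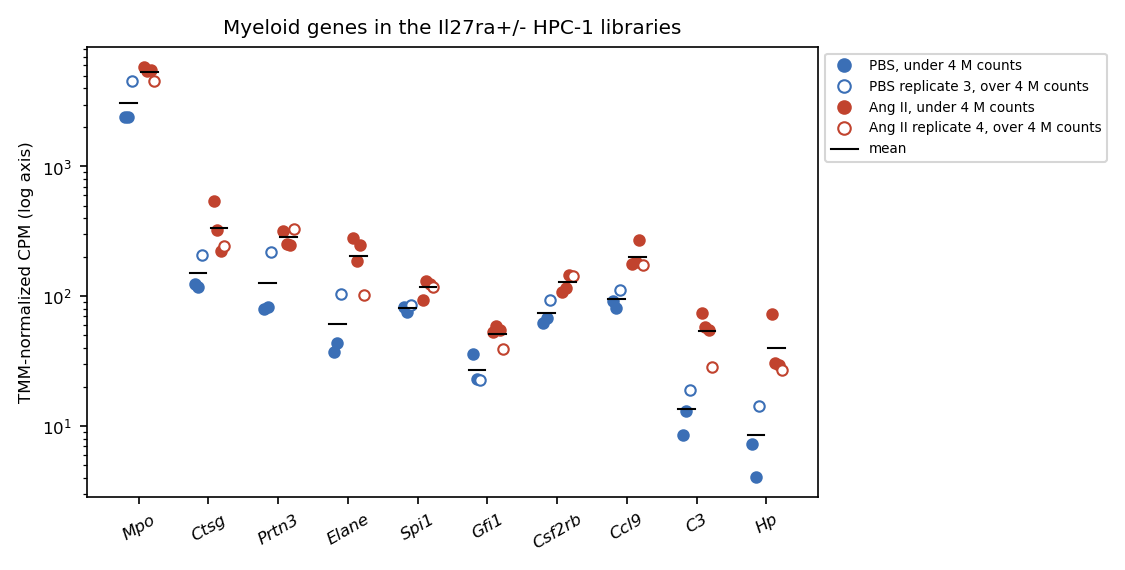
TMM-normalized CPM (log axis) of 10 myeloid genes in the 3 PBS and 4 Ang II libraries of heterozygous HPC-1, 1 point per library, with open points for the 2 libraries over 4 M counts and a line at each mean. Groups overlap in *Elane* alone among these genes, and in *Mpo* the open points lie at 4518 CPM (PBS) and 4525 CPM (Ang II).

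Transcription factor genes of the myeloid lineages were among the higher genes too. *Gfi1*, required for neutrophil differentiation, was at 35.9, 23.2 and 22.6 CPM after PBS and at 53.0, 59.3, 54.7 and 39.4 CPM after Ang II (0.92 ± 0.25). *Spi1*, which encodes PU.1, was at 82.5, 76.4 and 85.7 CPM against 94.2, 132, 125 and 117 CPM (0.52 ± 0.17). Neither overlapped between the groups. *Cebpa* was at 49.8, 55.4 and 111 CPM against 111, 127, 101 and 151 CPM (0.76 ± 0.27), where PBS replicate 3 reached the level of Ang II replicate 1 and exceeded that of Ang II replicate 3. *Cebpd* (1.26 ± 0.52) and *Ms4a3* (1.49 ± 0.59), a marker of granulocyte and monocyte progenitors, were also at an unadjusted p under 0.05. *Fcgr3*, an Fc receptor gene, was at 4.44, 0 and 9.15 CPM after PBS and at 62.5, 19.2, 37.5 and 13.1 CPM after Ang II, and *Igsf6* at 27.3, 19.7 and 38.0 CPM against 184, 60.2, 104 and 51.6 CPM. Ang II replicate 1 was the highest and the deep Ang II library the lowest of its group in both. *F13a1*, the gene of the coagulation factor XIII A chain made by monocytes, was at 68.2, 62.6 and 226 CPM against 494, 302, 395 and 212 CPM, with only the deep pair crossing. *Prtn3*, *Cebpa*, *Cebpd*, *Ms4a3*, *Fcgr3*, *Igsf6* and *F13a1* were named after their values were seen.

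The size of this difference went with the 2 deep libraries. Over the 5 libraries under 4 M counts, the list's median log2 difference between the group means was 1.22, and between the 2 deep libraries it was 0.23. A fit without the deep libraries called 8 of 12872 genes (0.0622%), *Mpo*, *Elane*, *Prtn3*, *Ctsg*, *C3*, *Hp*, *F13a1* and *Ccr2*, all higher after Ang II, with log2 fold changes of 1.23 ± 0.17 for *Mpo* to 3.04 ± 0.38 for *Ccr2*. In that fit 3 Ang II libraries stand against 2 PBS libraries. Without PBS replicate 3 the list's median was 1.22, and across the other libraries left out in turn it went down to 0.63. With the Y-linked genes as a covariate it was 0.91, and with library size as a covariate 0.88. Whether the deep libraries differ by depth or by the sex of the mice was not tested.

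Beyond the list, the genes with the smallest p-values among those whose groups did not overlap included several made by myeloid cells. *Ccl9* (chromosome 11, 83572919 to 83578636), a chemokine, was at 92.3, 81.7 and 113 CPM after PBS and at 176, 185, 269 and 173 CPM after Ang II, with Ang II replicate 3 well above the rest. Its log2 fold change of 1.07 ± 0.23 had the smallest p-value in edgeR (adjusted p = 0.507, shared with *Igkc*), and in DESeq2 it came after *Igkc* and *Hp* (adjusted p = 0.0182), both over 4 against 3 libraries. Over the alternatives, left-out libraries included, its adjusted p-values went from 0.000628 to 1. *C3*, complement component 3, was at 8.57, 13.1 and 18.9 CPM against 74.3, 58.4, 55.1 and 28.6 CPM (1.97 ± 0.46), and *Hp*, haptoglobin, at 7.3, 4.07 and 14.4 CPM against 73.4, 30.5, 29.5 and 27.3 CPM (2.18 ± 0.48). In both, every Ang II library exceeded the highest PBS library, and the deep library was the highest of the PBS group and the lowest of the Ang II group.

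Of the 12 genes with the smallest p-values in that direction, *Igkc*, *Csf2rb* and *Gfi1* are given with their lists, and those not named in the paragraph above were *Milr1*, an inhibitory receptor of mast cells and other myeloid cells (1.12 ± 0.27), *A630001G21Rik* (1.06 ± 0.27), *Dtx4* (0.89 ± 0.24), *Nhsl2* (1.24 ± 0.33), *Lgals1*, which encodes galectin-1 (0.92 ± 0.25), and *Idh1*, the cytosolic isocitrate dehydrogenase (1.13 ± 0.31). *Lgals1* was at 33.3, 26.0 and 45.4 CPM after PBS and at 76.4, 65.4, 70.7 and 53.2 CPM after Ang II. *Alas1*, which starts heme synthesis, was at 86.9, 97.7 and 107 CPM against 333, 178, 188 and 119 CPM (1.07 ± 0.32), and *Rab44*, expressed in granulocyte precursors and mast cells, at 307, 281 and 324 CPM against 486, 309, 719 and 549 CPM (0.76 ± 0.21). *Alas1* did not overlap, and in *Rab44* Ang II replicate 2 lay among the PBS libraries. Without a filter on low counts, 11 of 27858 genes (0.0395%) were called, 10 of them higher, among which were *Idh1*, *Alas1*, *Rab44*, *Fcgr3* and *Ctsg* besides the 4 of DESeq2.

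Among 14 hematopoietic growth factor receptor genes tested, 1 was higher and 2 were lower at an unadjusted p under 0.05, with a median log2 fold change of 0.10. Over all genes tested, 2.21% were higher and 1.72% lower. *Csf2rb*, the shared signaling chain of the receptors for IL-3, IL-5 and GM-CSF, was at 62.5, 67.9 and 94.1 CPM after PBS and at 109, 115, 145 and 143 CPM after Ang II. The groups did not overlap, and the deep libraries were both high within their groups. Its log2 fold change was 0.77 ± 0.19. *Il7r*, needed for lymphoid development, was near the limit of counting, at 2.86, 8.14 and 6.62 CPM against 0, 2.18, 0.842 and 1.22 CPM. Every Ang II library was below every PBS library. *Flt3*, the most abundant of these receptors, was at 334, 384 and 295 CPM against 213, 403, 453 and 277 CPM, and its groups overlapped.

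Over all genes tested, 2.21% were higher and 1.72% lower at an unadjusted p under 0.05. Of 18 genes tested for IL-27R and JAK-STAT signaling, 1 was higher and 0 lower, with a median of 0.01, and so few are not read as a result about the list. The higher gene was *Il6st*, the gp130 chain of the receptor, at 89.2, 88.0 and 137 CPM after PBS and at 165, 143, 199 and 158 CPM after Ang II (0.66 ± 0.19). No Ang II library was below a PBS library, although the deep PBS library lay close to Ang II replicate 2. In *Apoe*-/-*Il27ra*-/- HPC-1, *Il6st* was at 125, 102 and 128 CPM after PBS and at 170, 178, 140 and 132 CPM after Ang II. With intact *Il27ra* it was at 141 and 111 CPM against 110, 104 and 141 CPM. *Jak1*, the most abundant member, was at 291 to 399 CPM with overlapping groups. The renin-angiotensin list had 5 of 15 genes tested and 0 past an unadjusted p of 0.05 in either direction, and *Ace*, *Agt* and *Ren1* had no count in any library. Its most abundant gene was the aminopeptidase *Lnpep*, at 170 to 236 CPM.

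Few genes of stem cell identity and of the other lineages passed an unadjusted p of 0.05. Of 18 stem cell identity genes tested, 0 were higher and 1 was lower at an unadjusted p under 0.05, 13 had a negative fold change, and the median was −0.15. This median was −0.37 over the libraries under 4 M counts and 0.09 between the deep libraries. Lymphoid priming had 15 genes tested, 0 higher and 1 (*Il7r*) lower, with a median of −0.16, and megakaryocyte and erythroid priming had 15 tested and 0 in either direction, with a median of −0.39, which went from −0.62 to 0.13 with 1 library left out at a time. Of 11 *Hoxa* and *Hoxb* genes tested, 1 (*Hoxa6*) was lower, and the median was −0.13, with 0.21 between the deep libraries and −0.62 over the other 5. *Hoxa6* was at 15.9, 25.4 and 7.01 CPM after PBS and at 3.47, 1.31, 7.16 and 8.53 CPM after Ang II, where the deep PBS library fell among the Ang II libraries.

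Some heat shock genes were lower, but not the most abundant ones. All 12 tested had a negative log2 fold change, 5 of them at an unadjusted p under 0.05 (0 higher), and the median was −0.27. This median was −0.53 to −0.22 with 1 library left out at a time. *Hspa1a* and *Hspa1b*, near-identical copies of the inducible Hsp70 gene whose counts are uncertain because reads can be split between them, were at 203, 96.7 and 38.2 CPM and at 269, 183 and 51.4 CPM after PBS. After Ang II they were at 26.1, 15.7, 29.0 and 31.4 CPM and at 44.3, 23.6, 45 and 44.5 CPM. All Ang II libraries lay below all PBS libraries, and Ang II replicate 2 was the lowest in both genes. The PBS libraries spread widely, and the deep one was nearest to Ang II. *Dnaja1*, an Hsp40 co-chaperone, was at 388, 384 and 212 CPM against 212, 215, 142 and 217 CPM (−0.74 ± 0.19), and *Dnajb1* at 141, 101 and 63.1 CPM against 73.4, 56.3, 48.8 and 60.0 CPM (−0.77 ± 0.27). In both, as in *Hsph1* (−0.63 ± 0.26), PBS replicate 3 overlapped with the Ang II libraries. *Hsp90ab1*, the most abundant member, was at 4615 to 6837 CPM after PBS and at 3370 to 7624 CPM after Ang II. *Hspa1b* was named after its values were seen. The median difference between the deep libraries was −0.05, and over the other 5 it was −0.39.

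Genes of the unfolded protein response of the endoplasmic reticulum were highest in Ang II replicate 1. Of 18 genes tested, 5 were higher and 0 lower at an unadjusted p under 0.05, 15 were positive, and the median was 0.35. The summed level was 6071, 4675 and 5396 CPM after PBS and 12986, 7145, 4834 and 6024 CPM after Ang II. Ang II replicate 1 was highest by far, Ang II replicate 2 was also above every PBS library, and replicates 3 and 4 lay within the PBS range. With 1 library left out at a time, the median was 0.21 to 0.50. The chaperone gene *Calr*, the most abundant, was at 2249, 1474 and 1722 CPM against 5498, 2775, 1448 and 1987 CPM. *Pdia4* (0.62 ± 0.20), *Pdia6* (0.51 ± 0.21), *Manf* (0.69 ± 0.29), *Hsp90b1* (0.60 ± 0.27) and *Hspa5* (0.54 ± 0.25), the last named after its values were seen, were the 5 members, and none had groups that did not overlap. The median difference was 0.18 between the deep libraries and 0.41 over the other 5.

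Most interferon response genes had small negative fold changes. Of 35 tested, 27 were negative, 3 were lower and 1 was higher at an unadjusted p under 0.05, and the median was −0.29. *Xaf1* was at 32.4, 36.9 and 23.0 CPM after PBS and at 12.2, 19.6, 15.6 and 22.4 CPM after Ang II (−0.80 ± 0.30). *Ifit1* was at 14.9, 20.3 and 13.8 CPM against 2.61, 8.29, 0.842 and 11 CPM (−1.46 ± 0.64), and *Irgm2* was lower as well (−0.65 ± 0.27). For *Xaf1* and *Ifit1* all Ang II libraries were below all PBS libraries. *Gbp3*, a guanylate-binding protein gene, went the other way, at 124, 78.6 and 126 CPM against 241, 158, 130 and 143 CPM (0.61 ± 0.25). The interferon-induced GTPases, a list with 8 of its 10 tested genes in the interferon response list too, had 1 higher and 1 lower, with a median of −0.32.

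*H2-Q7*, *H2-Q6* and *H2-Q4*, MHC class I genes of the Q region, were lower, while *H2-Q5* and *H2-Q10* did not pass an unadjusted p of 0.05. Of 17 MHC class I genes tested, 3 were lower and 0 higher at an unadjusted p under 0.05, with a median of −0.21. *H2-Q7* (chromosome 17, 35439155 to 35443773) was at 247, 218 and 219 CPM after PBS and at 79.0, 110, 173 and 122 CPM after Ang II. The groups did not overlap, and the PBS libraries were close together. The log2 fold change was −0.91 ± 0.23, the smallest p-value among genes that were lower. *H2-Q6* was at 188, 242 and 147 CPM against 100, 132, 169 and 95.3 CPM (−0.64 ± 0.20), and *H2-Q4* at 139, 175 and 138 CPM against 69.5, 96.4, 120 and 118 CPM (−0.57 ± 0.20). These genes are near-identical paralogs, so the split of counts among them is uncertain. The classical genes *H2-K1*, at 692 to 849 CPM in the 7 libraries, and *H2-D1* had overlapping groups.

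Of the 12 genes with the smallest p-values among those below in every Ang II library, *Foxm1*, a transcription factor of the G2 phase and mitosis, showed the tightest control group, at 103, 104 and 103 CPM after PBS and at 79.9, 70.7, 51.4 and 71.6 CPM after Ang II (−0.60 ± 0.18). *Zc3hav1*, an antiviral zinc finger protein gene, was at 212, 219 and 203 CPM against 140, 157, 143 and 170 CPM (−0.47 ± 0.15). *Hmga2*, a chromatin protein of fetal and self-renewing progenitors, was at 27.9, 18.5 and 17.5 CPM against 8.68, 15.3, 8.42 and 10.7 CPM (−0.98 ± 0.33). None of these groups overlapped, which the rule that picked these genes required. The remaining 8 besides *H2-Q7* were *Zfp982* (−1.35 ± 0.35), *Podnl1*, *Guf1* (−0.62 ± 0.20), *Pdik1l* (−0.81 ± 0.26), *Pik3c2b* (−0.92 ± 0.30), *Znrf3* (−0.84 ± 0.27), *Rnf150* (−1.0 ± 0.33) and *4930565N06Rik* (−2.12 ± 0.69). *Podnl1* had 49, 25 and 19 counts after PBS and 3, 3, 4 and 10 counts after Ang II, and its pooled ratio was 0.182 with a 95% counting interval of 0.107 to 0.298.

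Most cell cycle genes had a negative fold change. S phase had 30 genes tested, 0 higher, 1 lower (*Slbp*, −0.38 ± 0.16) and 25 negative, with a median of −0.14. G2 and mitosis had 30 tested, 0 higher, 1 lower and 24 negative, with a median of −0.19. The member was cyclin A2, *Ccna2*, at 101, 151 and 141 CPM after PBS and at 92.5, 103, 69.9 and 84.4 CPM after Ang II (−0.58 ± 0.20), where Ang II replicate 2 exceeded PBS replicate 1. *Mki67*, the most abundant, was at 2770, 3118 and 2022 CPM against 3059, 2039, 2624 and 1337 CPM, and its lowest value in either group came from the deep library. The median of the G2 and mitosis list was −0.58 between the deep libraries and −0.07 over the other 5. Of 15 G1 cyclins, kinases and Myc genes, 2 were lower, *E2f2* (−0.82 ± 0.36) and *Ccnd3* (−0.52 ± 0.23), and 0 higher, with a median of −0.14. Cyclin-dependent kinase inhibitors (5 tested, median −0.02), *Trp53* and its targets (21 tested, median −0.11) and replication-dependent histones (58 tested, median −0.09) had 0 genes past an unadjusted p of 0.05 in either direction.

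Ribosomal protein genes mostly had small positive fold changes. Of 85 tested, 80 had a positive log2 fold change, 3 were higher (*Rpl28*, *Rplp2* and *Rpl11*) and 0 lower at an unadjusted p under 0.05, where 2.21% of all genes tested were higher, and the median was 0.17. The median difference was 0.03 between the deep libraries and 0.21 over the other 5. They took 5.04%, 5.56% and 6.17% of the counts after PBS and 5.55%, 7%, 5.9% and 6.24% after Ang II, and these ranges overlapped. *Rpl28* was at 496, 522 and 587 CPM against 688, 850, 665 and 634 CPM (0.40 ± 0.16). Nuclear-encoded oxidative phosphorylation genes (75 tested, 53 positive, median 0.10) had 0 in either direction, and glycolysis (16 tested) had 1 higher, *Aldoa* (0.37 ± 0.15), and 0 lower, with a median of 0.12.

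Cholesterol synthesis and uptake had 21 genes tested, 3 higher and 0 lower at an unadjusted p under 0.05, and a median of 0.29. *Fdps*, a gene of this pathway, was at 17.8, 34.1 and 46.5 CPM after PBS and at 63.4, 50.6, 40.8 and 54.8 CPM after Ang II (0.67 ± 0.30), where PBS replicate 3 exceeded Ang II replicate 3. Cholesterol efflux had 8 tested and 0 in either direction, with a median of 0.18. Of 18 NADPH oxidase and antioxidant genes, 3 were higher and 0 lower, with a median of 0.07. *Ncf1* (p47phox) was at 93.9, 99.9 and 112 CPM against 173, 168, 159 and 106 CPM (0.57 ± 0.19), and *Ncf4* (p40phox) at 19.4, 14.1 and 22.6 CPM against 26.1, 27.5, 42.9 and 33.8 CPM (0.80 ± 0.33). The 3 shallow Ang II libraries exceeded every PBS library in both of these genes, and the deep Ang II library did so in *Ncf4* only.

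Of 17 inflammatory receptor and NF-κB genes tested, 2 were higher and 1 lower at an unadjusted p under 0.05, with a median of −0.04. Over all genes tested, 2.21% were higher and 1.72% lower. The 2 higher genes of the list encode both chains of the interferon-γ receptor. *Ifngr1* was at 101, 93.6 and 118 CPM after PBS and at 207, 126, 176 and 117 CPM after Ang II (0.58 ± 0.19), and *Ifngr2* at 21.3, 19.1 and 30.4 CPM against 36, 35.3, 51.4 and 35.8 CPM (0.74 ± 0.25). *Icam1*, an adhesion molecule gene, was at 29.2, 43.5 and 31.5 CPM against 10.4, 20.5, 14.7 and 29.1 CPM (−0.87 ± 0.31). Groups did not overlap in *Ifngr2* and *Icam1*, the latter by a small margin. Niche adhesion and homing had 15 tested, 2 higher and 0 lower, with a median of 0.19. These were the chemokine receptor genes *Ccr2*, at 14.9, 6.26 and 54.1 CPM against 110, 52.3, 98.1 and 71.1 CPM (1.68 ± 0.60), and *Cxcr2* (1.41 ± 0.61), which guide monocytes and neutrophils. In *Ccr2* the deep PBS library was just above Ang II replicate 2. Among 14 chromatin regulators of clonal hematopoiesis, *Idh1* was higher and the Polycomb gene *Bmi1* lower (−0.63 ± 0.22), with a median of −0.06.

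Immediate early genes depended on the library. Of 17 tested, 0 were higher and 1, *Klf6* (−0.75 ± 0.33), was lower at an unadjusted p under 0.05, 14 were positive, and the median was 0.53. Their summed level was 530, 495 and 250 CPM after PBS and 205, 442, 929 and 750 CPM after Ang II. Both groups spanned a wide range, with Ang II replicate 1 the lowest of all 7 and Ang II replicate 3 the highest. The median difference was 1.04 between the deep libraries and −0.24 over the other 5, so the sign turned with the libraries used. *Jun*, the most abundant, was at 215, 196 and 64.9 CPM against 66.0, 192, 415 and 298 CPM.

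Markers of cells that a sort could carry over were read as summed levels. The monocyte and macrophage list had 7 of 14 genes tested, with 7 positive, 1 higher (*Ccr2*) and 0 lower, and a median of 0.87. With 1 library left out at a time, this median was 0.695 to 1.97. The median difference was 0.24 between the deep libraries and 1.25 over the other 5. The list summed to 162, 161 and 255 CPM after PBS and to 358, 325, 361 and 291 CPM after Ang II, with no overlap. Its most abundant gene was *Lyz2*, at 76.0 to 92.7 CPM against 89.7 to 109 CPM. The macrophage markers *Adgre1*, *C1qa*, *C1qb* and *C1qc* were each under 1 CPM on average. Other members were present, with *Csf1r*, *Ly6c2* and *Cd68* at averages of 74.0, 24.4 and 16.2 CPM. Their log2 fold changes were 0.76, 1.47 and 0.71, with overlapping groups. *Vcam1* and *Mrc1* averaged 2.20 and 2.15 CPM. Mature neutrophil genes summed to 6.35, 1.88 and 6.23 CPM against 37.8, 3.93, 37.0 and 1.98 CPM. They were thus higher in Ang II replicates 1 and 3 alone, with *S100a9* as most abundant (0 to 9.26 CPM) and *Ly6g* and *Wfdc21* at 0. The part of such cells in the differences of the myeloid genes was not tested.

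Erythroblast genes had 12 tested, 4 higher and 1 lower (*Car2*, −0.70 ± 0.29) at an unadjusted p under 0.05, with a median of 2.2, and were led by Ang II replicates 2 and 3. The median difference was −0.68 between the deep libraries and 1.78 over the other 5. *Hba-a1* had 7, 0 and 7 counts after PBS and 6, 148, 52 and 10 counts after Ang II, with a pooled ratio of 13.1 (95% counting interval 7.63 to 24.3), and *Hbb-bs*, named after its values were seen, had 3, 14 and 27 against 17, 170, 108 and 21 counts. The globin genes are near-identical copies with uncertain counts. *Alas2* and *Slc4a1* had pooled ratios of 6.48 (3.44 to 13.5) and 4.88 (2.28 to 12). Intervals of this kind cover counting error only. The list summed to 127, 187 and 294 CPM against 83.8, 441, 327 and 164 CPM, and the groups overlapped. *Car2*, which progenitors also express, made up most of the sum except in Ang II replicates 2 and 3, where it was at 122 and 107 CPM.

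Immunoglobulin transcripts were the other such signal. *Igkc*, the κ light chain constant gene, had 4, 1 and 1 counts after PBS and 13, 60, 19 and 53 counts after Ang II, that is 1.27, 0.313 and 0.195 CPM against 5.64, 26.2, 8 and 8.07 CPM. The pooled ratio was 20.5 with a 95% counting interval of 9.19 to 56.8, and the groups did not overlap. The B cell list had 5 of 13 genes tested, 2 higher (*Igkc* and *Ighm*, 0.67 ± 0.31) and 0 lower, and a median of −0.06, and summed to 114, 150 and 96.4 CPM against 150, 256, 217 and 115 CPM, most of it *Ighm*. *Ms4a1* and *Pax5*, which mark B cells, averaged under 0.1 CPM. Not all members were this scarce, since *Cd79b*, *Blnk* and *Fcer2a* averaged 10.7, 3.22 and 1.60 CPM. Their log2 fold changes were −0.55, −0.06 and −0.72, with overlapping groups. Plasma cell genes summed to 3.17 to 10 CPM after PBS and 3.04 to 12.5 CPM after Ang II with *Sdc1* as most abundant and *Ighg1* at 0, and T and NK cell genes to 9.39 to 17.8 CPM and 5.47 to 14.3 CPM with *Lck* as most abundant and *Cd3e*, *Cd3g*, *Gzma*, *Ncr1*, *Trac* and *Trbc2* at 0.

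The remaining lists had 0 genes past an unadjusted p of 0.05 in either direction, except for the lineage panel of the sort (6 tested), where *Itgam* (CD11b) was higher, at 34.9, 39.4 and 40.7 CPM after PBS and at 47.3, 52.8, 69.5 and 65.3 CPM after Ang II (0.62 ± 0.24). Among the remaining lists, dendritic cell genes (9 tested) summed to 610 to 697 CPM after PBS and 610 to 855 CPM after Ang II, with *Flt3* as most abundant. Eosinophil, mast cell and basophil genes (6 tested) summed to 32.2 to 40.0 CPM and 36.2 to 66.5 CPM, mostly *Cpa3*, with *Ear1* and *Prg2* at 0. Endothelium and stroma genes (4 tested) summed to 160 to 171 CPM and 179 to 204 CPM, mostly *Pecam1*, which progenitors also express. Intestinal epithelium genes (12 tested) summed to 33.7 to 89.2 CPM and 36.2 to 66.9 CPM, mostly *Krt18*, with *Cdx1*, *Fabp1*, *Olfm4* and *Tff3* at 0. The others were the sort markers (4 tested), the sex-linked genes (6 tested) and abundant noncoding RNA (13 tested). Noncoding RNA of that list took 5.43%, 3.36% and 5.84% of the counts after PBS and 4.80%, 5.18%, 4.02% and 6.62% after Ang II, with overlap. Genes encoded by mitochondrial DNA were not analysed here.

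The change with Ang II was then set against that in 3 other pairs of groups. In HPC-1 of *Apoe*-/-*Il27ra*-/- mice (4 Ang II, 3 PBS libraries), 0 of 13199 genes differed in their change from the heterozygous pair (edgeR's test of the interaction). At an unadjusted p under 0.05 were 169 (1.28%), and DESeq2 and limma-voom called 0 with 190 and 314. With 1 library left out at a time, the 169 became 95 (without *Apoe*-/-*Il27ra*-/- PBS replicate 2) to 309 (without heterozygous PBS replicate 3). The median of the myeloid priming list was 0.41 in that genotype against 0.78 in the heterozygous one, with *Mpo* at 0.67, *Elane* at 1.51 and *Ctsg* at 1.05, against 0.78, 1.71 and 1.14. These groups, too, hold 1 library each over 4 M counts, with *Xist* at 4125 CPM (PBS) and 3615 CPM (Ang II). *Mpo* was at 4105 CPM in the deep PBS library and 3177 CPM in the deep Ang II library, against 2135 and 2345 CPM in the other PBS libraries and 4421 to 5695 CPM in the other Ang II libraries. The smallest p-values of this test belonged to *A630001G21Rik*, to *Gm14419*, *Cstad* and *Gm21887*, and to a gene without a symbol, several of them with counts in few libraries.

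In HPC-1 with intact *Il27ra* (3 Ang II, 2 PBS libraries), where all 5 libraries were under 4 M counts, the myeloid genes leaned the other way. *Mpo* was at 5246 and 5824 CPM in the 2 PBS libraries and at 3989, 5176 and 5556 CPM after Ang II, and *C3* at 37.9 and 66.0 CPM against 22.0, 33.0 and 26.5 CPM. The PBS libraries with intact *Il27ra* thus lay above all heterozygous PBS libraries for these genes, as for *Hp* (24.0 and 45.3 CPM) and *Csf2rb* (152 and 172 CPM), but not for *Elane*, *Prtn3* or *F13a1*, where 1 of the 2 was below the deep heterozygous PBS library. The Ang II libraries differed in level for some genes as well, since *Hp* was at 18.8, 22.3 and 23.5 CPM after Ang II with intact *Il27ra*, below all 4 heterozygous Ang II libraries. The median log2 fold change of the myeloid priming list was −0.19, with *Mpo* at −0.17, *Elane* at −0.44, *C3* at −0.93, *Hp* at −0.69 and *Csf2rb* at −0.35. The difference between the genotypes in the change was 0.95 ± 0.37 for *Mpo*, 2.16 ± 0.92 for *Elane*, 2.90 ± 0.67 for *C3*, 2.86 ± 0.70 for *Hp* and 1.12 ± 0.29 for *Csf2rb*. No gene passed (0 of 13199, smallest adjusted p = 0.981 in edgeR), with 605 (4.58%) at an unadjusted p under 0.05. DESeq2 called 1, *Igkc*, with 704, and limma-voom 0 with 1021. With 1 heterozygous library left out at a time, the 605 became 378 (without PBS replicate 2) to 802 (without PBS replicate 3). The smallest p-values belonged to *Igkc*, *C3*, *Hp*, *Cfap36* and *Phtf2*. Without the deep libraries, 9 genes were called, *Mpo*, *Elane*, *Prtn3*, *Ly6c2*, *C3*, *Hp*, *Alas1*, *F13a1* and *Ccr2*, each with a more positive change in the heterozygous pair.

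LT-HSC of the same genotype (4 Ang II, 3 PBS libraries) hardly held these transcripts. *Mpo* was at 0.485 to 4.83 CPM in their 7 libraries and *Elane* at 0 to 0.862 CPM, and the list's median was −0.18. In a fit of both cell types, 0 of 18013 genes differed in their change, with 546 (3.03%) at an unadjusted p under 0.05. DESeq2 and limma-voom called 0 with 373 and 893. With 1 library left out at a time, the 546 became 261 (without LT-HSC PBS replicate 2) to 1090 (without HPC-1 PBS replicate 3).

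**Figure D2:**
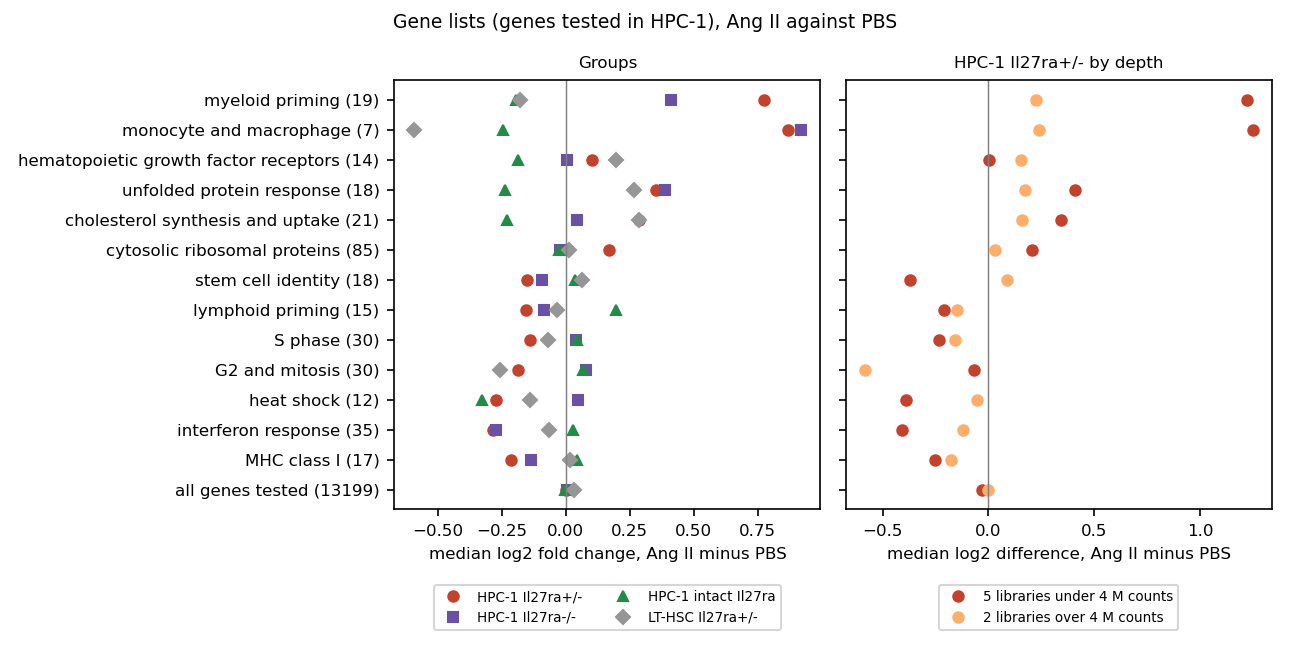
Median log2 fold change after Ang II of 13 gene lists and of all genes tested, on the left in 4 pairs of groups and on the right, as the difference of group means of log2 CPM, within the 5 libraries under 4 M counts and between the 2 libraries over 4 M counts of heterozygous HPC-1. The myeloid priming list lies at 0.78 in heterozygous and −0.19 in *Il27ra*-intact HPC-1, and at 1.22 and 0.23 by depth, and in edgeR's test over all libraries 0 genes differed in their change between the pairs.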

How the data were processed

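Stranded total RNA of sorted HPC-1 was sequenced, and the values used are gene-level expected counts, which the authors estimated with RSEM 1.2.31 after alignment to mm10 with Bowtie2, per their processing notes, and deposited without normalization. The table holds whole numbers for 38887 genes in 36 libraries. Groups follow the labels. Low depth (3 counts equal 0.457 to 1.31 CPM over the 7 libraries) sets the precision for scarce genes.

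Counts of the 19 HPC-1 libraries (6 groups) were filtered (filterByExpr), TMM-normalized and tested with edgeR 4.0.16 (quasi-likelihood, robust) in R 4.3.3, with Benjamini-Hochberg adjustment at 5%. Interactions came from the same fit, and for LT-HSC from a fit of all 36 libraries in 12 groups. SE is the fold change divided by the square root of F. DESeq2 1.42.0, limma 3.58.1 (voom with sample weights), other filters and scalings, covariates, a replicate block and libraries left out were alternatives. The tests were also run on simulated counts with the same dispersion for every gene and no expression difference linked to sex or depth. That setting is simpler than these data. Pooled ratios have exact 95% counting intervals.

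Genes were named by rule. In each direction these were the 12 with the smallest p-value among genes with non-overlapping groups and a mean of at least 5 CPM in the higher group. To them were added genes called under an alternative, members of 43 gene lists at an unadjusted p under 0.05 with each list's most abundant gene, sort markers and sex-linked genes, and 5 genes per interaction. Values per library are given for more genes than the 30 planned. Members and lists were chosen with earlier results of these data known. Genes of mitochondrial DNA were not analysed here, and some genes that the rule names are not used here.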

Additional observations from a re-analysis of the deposited data

Results flagged for a closer look

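Within the 4 Ang II libraries, a library far from the other 3 (gap over range above Dixon's 95% critical value) was found in 11 of 124 values examined, and chance gives about 1 in 20 such groups. Ang II replicate 4 stood apart in total counts, at 6318380 against 2272030 to 2618920, and in *4930565N06Rik*, at 6.55 CPM against at most 1.74 CPM. Ang II replicate 3 was high in *Ccl9* (269 CPM), *Ifngr2* (51.4 CPM) and the summed *Hoxa* and *Hoxb* genes (273 CPM), and low in *Dnaja1* (142 CPM) and *Pdik1l* (13.05 CPM). Ang II replicate 1 was high in *Hp* (73.4 CPM) and *Hsp90b1* (2641 CPM). Ang II replicate 2 was high in *Igkc* (26.2 CPM) and low in *Hspa1b* (23.6 CPM).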

How the results depend on the processing

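No gene passed in edgeR's test of Ang II against PBS, and this count of 0 was kept under upper-quartile scaling, a filter at a mean of 10 counts, thinning to the lowest total, the Y-linked covariate, limma-voom, the test without the robust option, removal of abundant noncoding RNA, and the compared groups alone. It became 4 with DESeq2, 11 without a filter, 8 in libraries under 4 M counts and 1 with library size as a covariate, *Gm26244*, chosen after its values were seen. For the change against *Apoe*-/-*Il27ra*-/- HPC-1, the count of 0 became 2 without a filter and 1 with library size as a covariate. Against HPC-1 with intact *Il27ra* it became 1 with DESeq2, 8 without a filter, 9 in libraries under 4 M counts and 1 with library size as a covariate. Against LT-HSC it became 44 without a filter. The cause was not tested. Leaving out 1 library at a time gave 0 to 0 genes in each of the 4 results, and where it left 1 PBS library with intact *Il27ra*, that library was assumed to vary like the other groups.

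The labels do not say whether equal replicate numbers mark paired samples, and 3 same-numbered pairs are too few to decide it. Same-numbered PBS and Ang II libraries had correlations of 0.234, 0.0033 and −0.0902, and the highest, 0.3925, was between PBS replicate 3 and Ang II replicate 4, the deep libraries. With the replicate block, in the compared groups, 5 genes were called, *C3*, *Elane*, *Igsf6*, *Hbb-bs* and *Rpl27-ps3*, the last chosen after its values were seen. The block called 0 genes in the 3 interactions.

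Of 1614 fold changes of the 81 genes described, 1588 kept direction and side of the threshold, 26 passed it and 0 reversed. These 81 were picked with their values in view from 139 named and tested genes, over which 85 of 2754 values reversed, so the 0 is a property of the choice. Of 857 list medians, 40 moved by more than the spread between replicates. Several small list medians changed sign with a library left out or between the deep libraries and the others. Depth limits genes under a few CPM, and 2 deep libraries, 1 per group, cannot show whether depth or sex-linked expression goes with the smaller myeloid difference.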
